A study of Mus musculus with 20 samples.

Results

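The genes described here are the 3 D-type cyclins (Ccnd1, Ccnd2 and Ccnd3), the 2 kinases they activate (Cdk4 and Cdk6) and 5 inhibitors of cyclin-dependent kinases (Cdkn1a, Cdkn1b, Cdkn2a, Cdkn2b and Cdkn2c), followed through mouse colonoid cultures of 2 genotypes. They were selected by symbol, as the genes of G1 control apart from those of S and M phase, and were 10 of the 35240 gene symbols in the table, with 58 of its 112994 transcripts that carry a symbol. The list was chosen by readouts in part, because the change of the Ccnd2 genotype difference between the early and the late days was already known, so that Ccnd2 is described for genotype without a test. Colonoids are epithelial structures grown from colonic crypts. Crypts came from wildtype (WT) C57BL/6 mice or from whole-body Tnfr2-/- mice of the strain B6.129S2-Tnfrsf1b tm1Mwm/J, in which Tnfrsf1b, the gene of the TNF receptor TNFR2, is targeted, and were embedded in Matrigel under Intesticult medium. All cultures went through 5 passages and a nylon mesh before seeding, and were collected on days 1, 2, 3, 5 and 7 post-passage (DPP), with no further treatment. By the study's culture methods, crypts came from the distal colon of young adult mice of both sexes. Each genotype was represented by 2 mice and each mouse by 1 library a day, giving 20 libraries in 10 groups of 2. Days 1 to 3 are called early and days 5 and 7 late.

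D cyclins bind CDK4 and CDK6, and the complexes phosphorylate the retinoblastoma protein, which releases E2F factors and lets a cell pass from G1 into S phase. The INK4 inhibitors, which include the products of Cdkn2a, Cdkn2b and Cdkn2c, bind CDK4 and CDK6 and block this step. The CIP/KIP inhibitors p21 (Cdkn1a) and p27 (Cdkn1b) act on cyclin-CDK complexes more widely, above all on those of CDK2. In the colon, D cyclins are used by the dividing cells of the lower crypt, and inhibitors of both families accumulate as cells leave the cycle.

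Values are normalised expression, that is TPM, a length-corrected share of all transcripts, after division by a size factor, summed per gene. Library sums lay between 900655 and 1111080, and no counts were used here, so the counting error of low values is unknown. Each library had 13007 to 13469 genes at 1 or above, and no pair of libraries was identical (highest Pearson r 0.982). The targeted gene Tnfrsf1b was at 15.3 ± 3.09 in WT and 5.80 ± 2.84 in Tnfr2-/- libraries (SD, n = 10 each), lower but not at 0 in the knockout. It rose there from 3.85 ± 1.02 early (SD, n = 6) to 8.74 ± 1.82 late (SD, n = 4), by 1.02 on the log2 scale (limma, SE 0.181, adjusted p 0.00191), so that the genotypes differed by -1.72 early and by -0.79 late. The knockout was lower within each day, but Tnfr2-/- mouse 2 at 7 DPP (11.45) was above WT mouse 1 at 3 DPP (11.14). The epithelial keratin Krt8 was between 3463 and 6607 in every library. Fibroblast transcripts were present too: Dcn, a matrix proteoglycan, was between 135 and 402 in late WT and between 1493 and 2551 in late Tnfr2-/- libraries, while late Pdgfra (20.6 to 64.4 against 32.4 to 83.2) and Acta2 (9.69 to 58.6 against 10.4 to 92.8) overlapped between them. The defining immune gene Ptprc was at most 0.753, and the endothelial marker Emcn was listed at 0 in all 20. The study's own single-cell data describe Pdgfra+ fibroblasts beside epithelial cells in such cultures. In bulk cultures, fewer cells of a type and less RNA per cell cannot be told apart.

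All 10 genes passed the filter of a mean value of at least 1, which left 13539 genes for testing. Their levels, which are per length of transcript and so can be compared between genes, spanned a wide range. Cdk4 had the highest mean at 349.6, above 97.0% of the tested genes, followed by Ccnd1 (289.6), Cdkn1a (287.5), Ccnd2 (124.6) and Ccnd3 (79.2). Cdkn2b (56.8), Cdkn2a (38.2), Cdk6 (24.7) and Cdkn1b (20.9) came next, and Cdkn2c was lowest at 10.2. The first place of Cdk4 holds for the sum of all its transcripts. On protein-coding transcripts alone Cdk4 was at 100.7, below Cdkn1a (287.5), Ccnd1 (283.4) and Ccnd2 (111.6). Cdkn1a and Cdk4 varied least over the 20 libraries, with a coefficient of variation of 13.1% and 14.0%. Variation was widest, by this measure, at 41.2% for Cdkn2c, 40.9% for Ccnd2, 40.2% for Cdkn2b, 38.8% for Cdkn2a and 38.0% for Ccnd1.

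**Figure D1:**
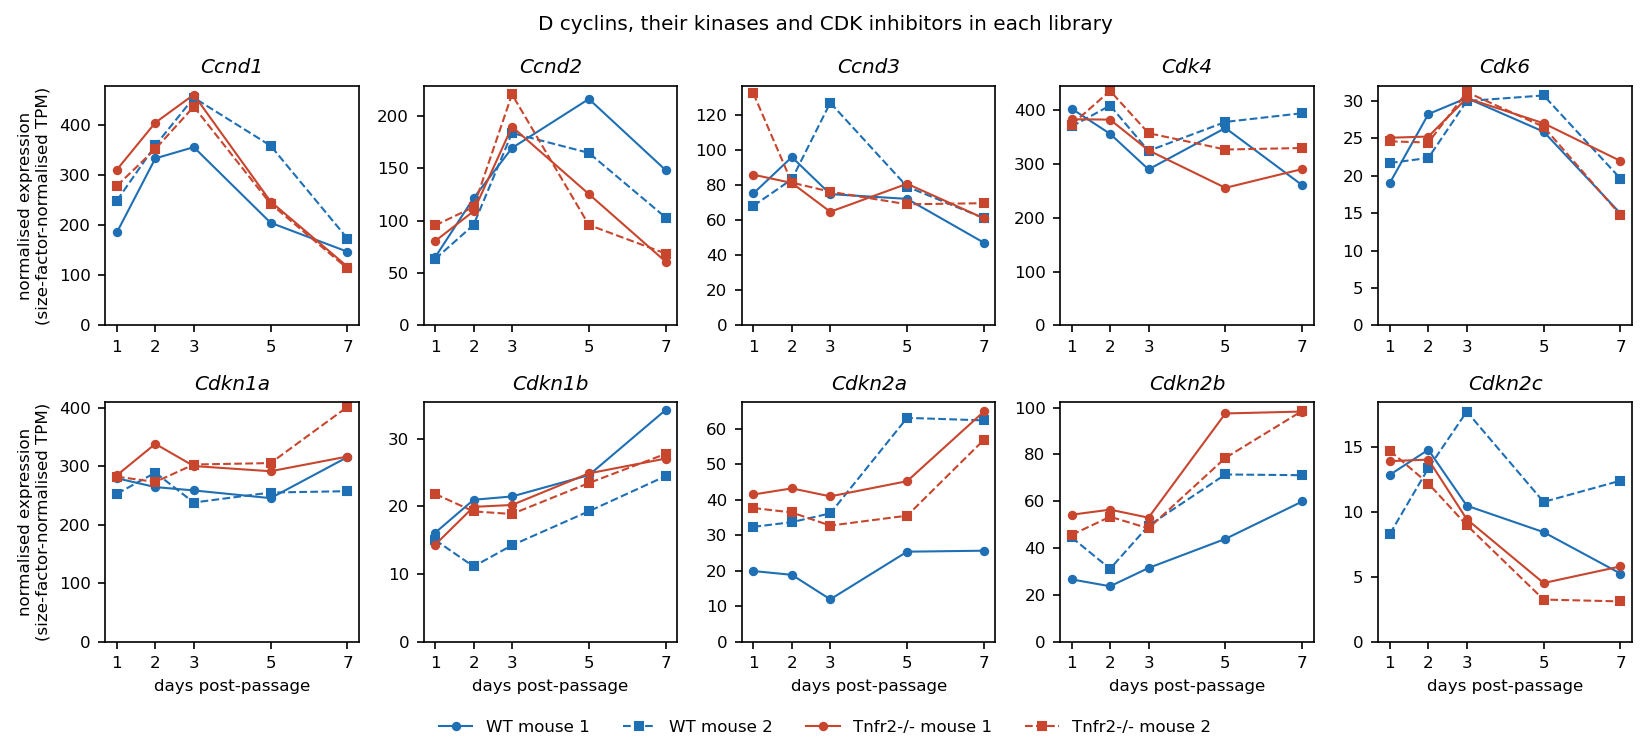
Normalised expression (size-factor-normalised TPM, linear axis from 0) of each of the 10 genes against days post-passage, with 1 line per mouse (blue WT, red Tnfr2-/-, solid mouse 1, dashed mouse 2). Ccnd1 peaked at 3 DPP and was lowest at 7 DPP in all 4 mice, while Cdkn2b was highest at 5 or 7 DPP in all of them.

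Between early and late days, averaged over genotypes, 5 of the 10 genes were called by limma at an adjusted p under 0.05, against 32.7% of all genes tested. Cdkn2b and Cdkn1b rose, and Ccnd1, Ccnd3 and Cdkn2c fell. The median log2 fold change was -0.108 over the 10 genes and 0.0149 over all tested genes. With libraries rescaled to equal totals Cdk4 and Cdk6 were called lower as well, giving 2 higher and 5 lower, and over all genes 42.1% of the calls were then higher, against 55.0%. Ccnd2 is left out of the counts within each genotype, since its courses make up the difference that was known beforehand. Of the 9 other genes, 3 were called within WT cultures (20.1% of all genes), with Cdkn2b and Cdkn1b higher and Ccnd1 lower at late days. Within Tnfr2-/- cultures 3 of the 9 were called as well (20.3% of all genes), with Cdkn2b higher and Cdkn2c and Ccnd1 lower. All 6 of these calls within a genotype were lost on means per mouse, with adjusted p between 0.0683 and 0.106. That fit called 0 of all 13539 genes within either genotype, so the loss says little about these genes. The 6 calls were also lost without either Tnfr2-/- mouse. The WT changes, which use no Tnfr2-/- library, stayed the same there (Ccnd1 -0.57, Cdkn1b 0.61 and Cdkn2b 0.84). For them only the shared estimate of the spread and the adjustment over genes differed. Cell type markers moved over the same days: of the goblet markers 4 of the 5 tested were called, all higher late, with a median log2 fold change of 3.34, of 10 fibroblast markers 4 were called, all higher late (median 0.378), and of 8 epithelial markers 4 were called higher and 2 lower (median 0.33), against the same 32.7% of all genes. Those marker values average the genotypes. Within WT cultures 1 fibroblast marker was called higher and 1 lower late (median 0.00983), against 20.1% of all genes. Within Tnfr2-/- cultures 4 were called, all higher late (median 0.879), against 20.3% of all genes. Dcn fell by 0.90 on the log2 scale in WT and rose by 0.91 in Tnfr2-/- cultures. The part of these markers in the changes of the 10 genes was not tested.

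Ccnd1 (ENSMUSG00000070348, chromosome 7, 144929931 to 144939925, minus strand, GRCm38) encodes cyclin D1 and was the most abundant D cyclin in every library except those of WT mouse 1 at 5 and 7 DPP, where Ccnd2 was slightly higher. From 1 to 7 DPP, WT mouse 1 had normalised expression of 186.0, 333.6, 356.1, 205.1 and 147.3, and WT mouse 2 of 249.5, 359.5, 454.8, 358.9 and 173.6. Tnfr2-/- mouse 1 had 311.2, 405.0, 460.8, 247.4 and 117.5, and Tnfr2-/- mouse 2 had 278.9, 352.4, 436.9, 243.0 and 113.8. The peak at 3 DPP and the minimum at 7 DPP were shared by all 4 mice. The early mean of 348.7 ± 84.1 (SD, n = 12) was followed by a late mean of 200.8 ± 82.0 (SD, n = 8), with overlapping ranges, since 1 DPP was also low. On the log2 scale the change was -0.85 (limma, SE 0.1, adjusted p 4.05e-05) and was called on means per mouse too (adjusted p 0.0255). It was -0.57 in WT (SE 0.142, adjusted p 0.0127) and -1.12 in Tnfr2-/- cultures (SE 0.142, adjusted p 0.000224). On means per mouse neither of these was called (adjusted p 0.106 and 0.0683). In WT the call was lost without mouse 1 at 5 DPP (-0.37, adjusted p 0.0556) or at 7 DPP (-0.52, adjusted p 0.0611). The difference between these courses, -0.55 (SE 0.201), did not pass the test (adjusted p 0.304).

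Ccnd1 also gave the only called step between neighbouring days. From 3 to 5 DPP it fell by 0.72 on the log2 scale (limma, SE 0.155, adjusted p 0.0379), where 2.18% of all genes were called. This call was lost in 12 of the 20 fits that left out 1 library. Each of these left out a Tnfr2-/- library, WT mouse 2 at 3 DPP or WT mouse 1 at 5 DPP. The change lay between -0.74 and -0.52 in these fits, and between -0.92 and -0.52 over all 20. It stayed at -0.72 without a Tnfr2-/- library of 1, 2 or 7 DPP. It was also lost without the filter on low values (adjusted p 0.0588), without the mean-variance trend (0.0637) and without either Tnfr2-/- mouse (0.577 and 0.438). From 1 to 2 DPP no gene of the 10 was called (2 at an unadjusted p under 0.05, 0.761% of all genes called), and from 2 to 3 DPP none was either (2 at an unadjusted p under 0.05, 0% of all genes called). From 5 to 7 DPP Ccnd1 had the largest step, -0.92 (SE 0.155), which missed the threshold (adjusted p 0.0994), although it passed when the mouse or the replicate number entered as a block. None of the 10 was called there, with 4 at an unadjusted p under 0.05 and 0.0222% of all genes called. Between genotypes Ccnd1 was not called over all days (log2 fold change 0.02, SE 0.114, adjusted p 0.924), early (0.24, SE 0.127, adjusted p 0.451) or late (-0.31, SE 0.155, adjusted p 0.264), where the signs were opposite. Both Tnfr2-/- libraries were above both WT libraries at 1 DPP and below them at 7 DPP. Without WT mouse 1 the late difference was -0.57 and the early one 0.097. Without WT mouse 2 the late difference was -0.045 and the early one 0.39, so that both depended on which WT mouse was used.

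Ccnd2 (ENSMUSG00000000184, chromosome 6, 127125162 to 127152193, minus strand) encodes cyclin D2, and its course separated the genotypes at the late days. Normalised expression from 1 to 7 DPP was 65.2, 121.6, 169.5, 216.3 and 148.3 for WT mouse 1, and 63.5, 96.1, 183.8, 164.8 and 103.1 for WT mouse 2. For Tnfr2-/- mouse 1 the values were 80.6, 109.1, 189.8, 125.5 and 60.9, and for Tnfr2-/- mouse 2 they were 95.6, 113.1, 220.7, 96.0 and 68.7. At 1 and 3 DPP both Tnfr2-/- libraries lay above both WT libraries, and at 5 and 7 DPP both lay below. The minimum was at 1 DPP in both WT mice and at 7 DPP in both Tnfr2-/- mice.

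Over the late days Ccnd2 averaged 158.1 ± 46.7 in WT and 87.8 ± 29.3 in Tnfr2-/- libraries (SD, n = 4 each). As a description, the log2 fold change between genotypes was 0.23 early (SE 0.116) and -0.85 late (SE 0.142), and its change was -1.08 (SE 0.183). Late minus early was 0.51 in WT and -0.57 in Tnfr2-/- cultures. Leaving out each of the 20 libraries kept the late difference between -0.98 and -0.72, and leaving out all days of a mouse kept it between -1.08 and -0.62. The mean of both genotypes, which the selection did not use, showed no detectable change between early and late days (log2 fold change -0.03, SE 0.0916, limma adjusted p 0.82). Among the daily means over both genotypes, Ccnd2 stood highest at 3 DPP and lowest at 1 DPP.

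Most of the Ccnd2 signal, 86.1%, came from the full-length coding transcript Ccnd2-201 (chromosome 6, 127125162 to 127151060), which averaged 138.8 ± 39.8 in late WT and 78.0 ± 17.7 in late Tnfr2-/- libraries (SD, n = 4 each). All late WT values of this transcript, 102.8 or more, were above all late Tnfr2-/- values, 94.95 or less. Early, it averaged 109.6 ± 49.1 in WT and 103.3 ± 33.2 in Tnfr2-/- libraries (SD, n = 6 each), a log2 difference of -0.03 against 0.23 for the whole gene. At 3 DPP, where the whole gene was lower in both WT mice, Ccnd2-201 was higher in them, at 167.0 and 170.7 against 140.6 and 140.9 in Tnfr2-/- mice. The non-coding transcript Ccnd2-207, with 10.2% of the signal, was listed at 0 in 8 libraries and stood on that day at 34.7 and 59.8 in Tnfr2-/- mice 1 and 2, against 0 and 3.42 in WT. Ccnd2-206 was then at 11.9 and 17.0 in Tnfr2-/- mice and below 1 in WT. How kallisto divided shared reads between these transcripts was not tested.

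Ccnd3 (ENSMUSG00000034165, chromosome 17, 47505051 to 47599691, plus strand), the gene of cyclin D3, changed less. Its normalised expression was 64.7 at the lowest, 81.2 at the median and 132.0 at the highest of the 12 early libraries, and 47.1, 69.3 and 80.6 in the 8 late ones. Early and late ranges overlapped. The log2 fold change was -0.35 (limma, SE 0.110, adjusted p 0.027), and on means per mouse the adjusted p was 0.0717. Without Tnfr2-/- mouse 1 it was 0.0941, without Tnfr2-/- mouse 2 it was 0.246 and without WT mouse 1 it was 0.0759. The call was lost without WT mouse 1 at 5 DPP (adjusted p 0.0572) or 7 DPP (0.0726), without Tnfr2-/- mouse 2 at 3 DPP (0.0502) or 5 DPP (0.0671), and without Tnfr2-/- mouse 1 at 7 DPP (0.0653), with log2 fold changes from -0.33 to -0.30. Among its 21 transcripts, Ccnd3-205, which starts inside the gene at 47593470 and held 55.9% of the signal, fell by 0.80 on the log2 scale (SE 0.179, adjusted p 0.0150). Genotypes did not differ detectably in Ccnd3 over all days (log2 fold change 0.04, adjusted p 0.873).

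Taken as a sum, the 3 D cyclins held 527 ± 158 in early WT and 596 ± 107 in early Tnfr2-/- libraries (SD, n = 6 each), and 444 ± 128 in late WT and 338 ± 109 in late Tnfr2-/- libraries (SD, n = 4 each). Ccnd1 made up 61.4 ± 3.83% of this sum in early WT and 62.8 ± 4.65% in early Tnfr2-/- libraries, and 48.9 ± 8.34% and 52.1 ± 6.32% late. Ccnd2 went from 21.5 ± 4.25% to 36.2 ± 8.56% in WT and from 21.9 ± 5.23% to 26.0 ± 1.93% in Tnfr2-/- libraries. WT mouse 1 was the extreme case, with Ccnd2 at 43.8% of the sum at 5 DPP and 43.3% at 7 DPP against a Ccnd1 share of 41.6% and 43.0%. WT mouse 2, at 27.3% and 30.5%, was near the Tnfr2-/- libraries, which lay between 23.5% and 27.7%. At these days the WT mice lay further from each other than WT mouse 2 lay from the knockout. These shares are descriptions, since Ccnd2 entered them.

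**Figure D2:**
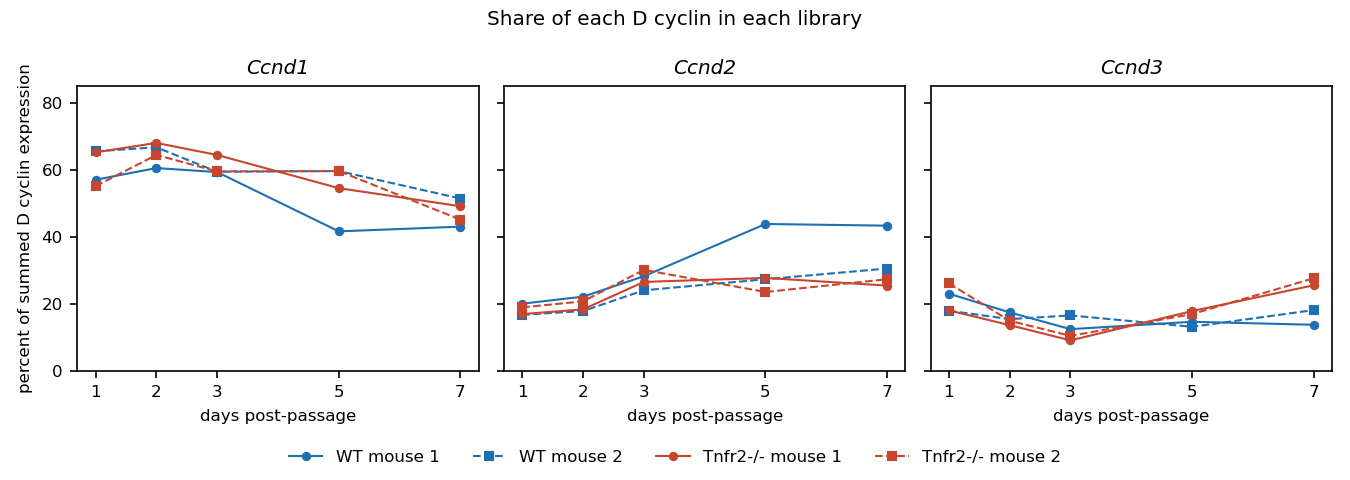
Percent of the summed normalised expression of the 3 D cyclins held by Ccnd1, Ccnd2 and Ccnd3 against days post-passage, with 1 line per mouse. The Ccnd2 share of WT mouse 1 reached 43.8% at 5 DPP, while the other 3 mice stayed at 30.5% or less.

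Neither kinase gene was called for late minus early or between genotypes. Cdk4 (ENSMUSG00000006728, chromosome 10, 127063534 to 127067920, plus strand) was at 366.4 ± 40.3 early (SD, n = 12) and 324.5 ± 52.7 late (SD, n = 8), a log2 fold change of -0.18 that was not called (limma, SE 0.0814, adjusted p 0.102). Within Tnfr2-/- cultures the change was -0.32 (SE 0.115, adjusted p 0.0627). It passed when the mouse entered as a correlated replicate block (adjusted p 0.0415), and with libraries rescaled to equal totals or divided by median ratios. On means per mouse it did not pass (adjusted p 0.202). Only 28.8% of the Cdk4 signal was assigned to protein-coding transcripts, with 45.1% on retained-intron and 26.1% on nonsense-mediated-decay transcripts, and none of its 9 transcripts was called for late minus early. Most of the Cdk4 gene sum thus came from transcripts annotated as other than protein coding. Cdk6 (ENSMUSG00000040274, chromosome 5, 3341485 to 3531008, plus strand) had its highest day mean at 3 DPP, where all 4 libraries lay between 29.98 and 31.2, and its lowest at 7 DPP, between 14.8 and 22.0. Its late minus early change of -0.22 (SE 0.0909) was not called for the gene (adjusted p 0.0807), while its main coding transcript Cdk6-202, with 89.1% of the signal, fell by 0.32 (SE 0.0858, adjusted p 0.0366). Genotype differences over all days were -0.04 for Cdk4 (adjusted p 0.825) and 0.06 for Cdk6 (0.745).

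Over all days, 2 of the 9 genes other than Ccnd2 were called between genotypes, Cdkn2b and Cdkn1a, both higher in Tnfr2-/- cultures, against 7.6% of all genes tested. The median log2 fold change of the 9 was 0.0564, and that of all tested genes was -0.0289. At the early days none was called by limma (2 at an unadjusted p under 0.05), against 1.2% of all genes. At the late days 1 of the 9 was called against 6.45% of all genes, Cdkn2c, which was lower in Tnfr2-/- cultures. For the change of the genotype difference from early to late days none of these 9 was called by limma (2 at an unadjusted p under 0.05), against 0.148% of all genes. Taking each day on its own, 2 libraries against 2, none of the 9 was called by limma at any day, with 1, 1, 0, 2 and 2 genes at an unadjusted p under 0.05 at 1, 2, 3, 5 and 7 DPP. The shares of all genes called at those days were 0.0739%, 0.096%, 0.155%, 1.65% and 0.82%. The 5 libraries of a mouse are repeated samples of 1 animal, so p-values over libraries can be too small. On means per mouse, 2 mice against 2, no genotype difference of the 9 was called over all days. Only 7 of all 13539 genes were called there, so this count says little about the 9.

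**Figure D3:**
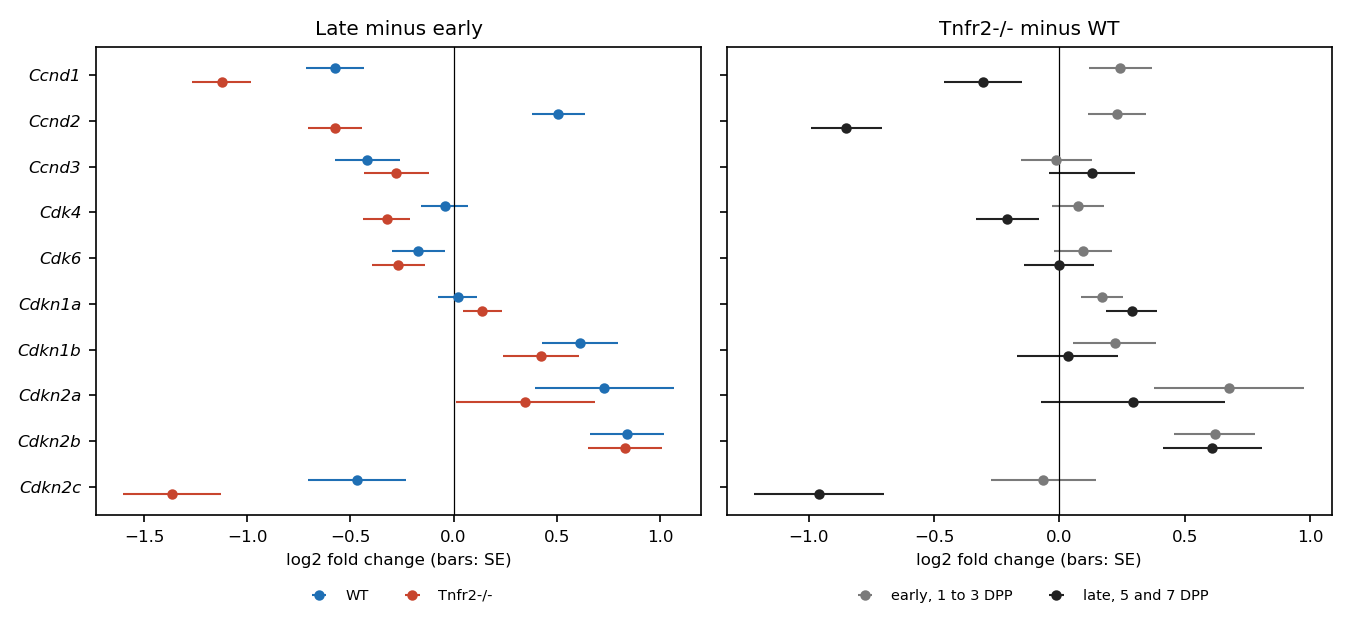
Log2 fold change (points) with its SE (bars) for each gene, from the limma fit. On the left, late (5 and 7 DPP) minus early (1 to 3 DPP) in WT (blue) and Tnfr2-/- (red), and on the right Tnfr2-/- minus WT at early (grey) and late (black) days. Ccnd2 had opposite signs in the genotypes on the left, 0.51 against -0.57, while Cdkn2b had nearly equal points in each panel, 0.84 and 0.83 on the left and 0.62 and 0.61 on the right.

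Among the CIP/KIP inhibitors, Cdkn1a (ENSMUSG00000023067, chromosome 17, 29090976 to 29100727, plus strand), the p53-inducible gene of p21, was slightly higher in the knockout. Its normalised expression was 237.8 at the lowest, 257.9 at the median and 315.5 at the highest of 10 WT libraries, and 273.0, 301.5 and 401.4 in 10 Tnfr2-/- libraries. Ranges overlapped over all days, although both Tnfr2-/- libraries were above both WT libraries at 1, 3, 5 and 7 DPP. The log2 fold change was 0.22 (limma, SE 0.0615, adjusted p 0.0394), and 0.26 (SE 0.0573, adjusted p 0.0474) for its main transcript Cdkn1a-201. With the mouse as a correlated replicate block the gene was not called (adjusted p 0.0897), nor on means per mouse (0.435), nor with libraries rescaled to equal totals (log2 fold change 0.14, adjusted p 0.111), and the call held in 7 of the 20 fits that left out 1 library, with adjusted p up to 0.0752 without Tnfr2-/- mouse 2 at 5 DPP. It was lost without any 1 mouse (adjusted p 0.0967 to 0.208). Late minus early it did not change detectably (log2 fold change 0.08, SE 0.0664, adjusted p 0.394).

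Cdkn1b (ENSMUSG00000003031, chromosome 6, 134920401 to 134925513, plus strand), the gene of p27, rose over the course. From 1 to 7 DPP, WT mouse 1 gave 16.1, 20.96, 21.5, 24.6 and 34.2, and WT mouse 2 gave 15.0, 11.1, 14.2, 19.3 and 24.5. Tnfr2-/- mouse 1 gave 14.3, 19.9, 20.2, 24.9 and 27.1, and Tnfr2-/- mouse 2 gave 21.8, 19.2, 18.9, 23.4 and 27.8. All 4 mice were highest at 7 DPP. The log2 fold change between early and late days was 0.52 (limma, SE 0.131, adjusted p 0.00801) and was called on means per mouse (0.036), but not without Tnfr2-/- mouse 1 (adjusted p 0.144) or mouse 2 (0.0933). It was 0.61 in WT (SE 0.185, adjusted p 0.0332), where the call was lost with libraries rescaled to equal totals (0.54, adjusted p 0.0582). The WT call was also lost in 6 of 20 fits without 1 library, with changes from 0.47 to 0.76 over the 20. Leaving out any 1 mouse lost it too, with changes from 0.56 to 0.66. In Tnfr2-/- cultures the log2 fold change was 0.42 (SE 0.185, adjusted p 0.128). The difference between the genotypes, -0.19, was not called (adjusted p 0.825).

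Cdkn2b and Cdkn2a are neighbours on the minus strand of chromosome 4, and Cdkn2c lies on the same chromosome. Tnfrsf1b is on chromosome 4 as well, 55.9 Mb from Cdkn2a and Cdkn2b and 35.5 Mb from Cdkn2c, so that sequence carried along with the targeted allele and loss of the receptor cannot be told apart by these data for genes linked to it. Cdkn2a has separate start sites for separate proteins: the distal one gives p19Arf, which acts through p53, and the proximal one gives p16Ink4a, an inhibitor of CDK4 and CDK6. Their windows, 250 bases before to 50 after each start, are shown with that of Cdkn2b (RefSeq, GRCm38.p6, minus strand) because the results that follow separate these 3 starts. Capitals mark matches on either strand to the GC box GGGCGG, present in 35.7% of 32851 such windows, or to the E2F-like word TTTCCCGC, present in 1.07%.
Cdkn2a, distal start, chr4:89294570-89294869: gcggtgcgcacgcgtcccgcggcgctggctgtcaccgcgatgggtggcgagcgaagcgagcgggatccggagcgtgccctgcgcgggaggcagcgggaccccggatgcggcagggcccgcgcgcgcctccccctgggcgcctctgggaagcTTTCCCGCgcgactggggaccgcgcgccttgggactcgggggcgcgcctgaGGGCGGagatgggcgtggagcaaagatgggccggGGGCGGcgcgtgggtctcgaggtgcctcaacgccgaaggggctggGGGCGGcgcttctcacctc
Cdkn2a, proximal start, chr4:89282143-89282442: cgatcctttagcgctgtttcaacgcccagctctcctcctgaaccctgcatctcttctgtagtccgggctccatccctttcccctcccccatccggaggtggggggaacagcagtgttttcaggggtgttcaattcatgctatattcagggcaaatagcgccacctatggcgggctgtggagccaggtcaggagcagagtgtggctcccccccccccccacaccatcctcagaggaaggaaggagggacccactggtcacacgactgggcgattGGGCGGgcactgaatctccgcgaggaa
Cdkn2b, chr4:89310983-89311282: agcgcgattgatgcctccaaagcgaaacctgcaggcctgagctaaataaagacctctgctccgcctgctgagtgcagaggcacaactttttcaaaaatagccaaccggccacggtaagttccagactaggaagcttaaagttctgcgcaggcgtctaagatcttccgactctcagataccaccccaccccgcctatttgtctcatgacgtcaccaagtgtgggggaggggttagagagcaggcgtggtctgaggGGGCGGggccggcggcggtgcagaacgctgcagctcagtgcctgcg
The distal Cdkn2a window held 3 GC boxes and the E2F-like word in sequence of 77.0% GC, whereas the proximal window (60.3% GC) and that of Cdkn2b (57.7% GC) held 1 GC box each. The median of all windows was 52.7% GC. No window of the 3 held the words TTTCGCGC (E2F, 0.323% of all windows), CACGTG (E-box, 7.15%), TGACTCA (AP-1, 5.2%) or TATAAA (13.6%). Such matches describe the sequence only.

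Cdkn2b (ENSMUSG00000073802, 89306299 to 89311039) encodes p15Ink4b, an inhibitor of CDK4 and CDK6 that TGF-beta induces in epithelial cells. It was higher both in late cultures and in Tnfr2-/- cultures. Over the 5 days its normalised expression ran through 26.6, 23.6, 31.5, 43.9 and 59.9 in WT mouse 1, and through 44.5, 31.1, 49.5, 71.4 and 71.1 in WT mouse 2. The series for Tnfr2-/- mouse 1 was 54.2, 56.4, 52.96, 97.5 and 98.3, and that for Tnfr2-/- mouse 2 was 45.6, 53.4, 48.4, 78.5 and 98.6. Both Tnfr2-/- libraries were above both WT libraries at every day except 3 DPP. The early mean over genotypes was 43.1 ± 11.7 (SD, n = 12) and the late mean 77.4 ± 20.0 (SD, n = 8), a log2 fold change of 0.84 (limma, SE 0.128, adjusted p 0.00027) that was called on means per mouse (0.0255). It was 0.84 in WT (SE 0.180, adjusted p 0.00608) and 0.83 in Tnfr2-/- cultures (SE 0.180, adjusted p 0.00606), with a difference of -0.01 (SE 0.255, adjusted p 0.994). On means per mouse neither course was called alone (adjusted p 0.0705 in WT and 0.0683 in Tnfr2-/- cultures).

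Between genotypes Cdkn2b was at 45.3 ± 17.6 in WT and 68.4 ± 22.3 in Tnfr2-/- libraries (SD, n = 10 each), which differed on the log2 scale by 0.62 (limma, SE 0.121, adjusted p 0.00537). The size was alike early (0.62, SE 0.161, adjusted p 0.0914) and late (0.61, SE 0.198, adjusted p 0.0866), neither called alone. The call over all days was kept in all 20 fits that left out 1 library, with adjusted p up to 0.0132. It depended on the mice: without WT mouse 1 the log2 fold change was 0.35 (adjusted p 0.0885), without WT mouse 2 it was 0.88 (9.74e-05), without Tnfr2-/- mouse 1 it was 0.54 (0.139) and without Tnfr2-/- mouse 2 it was 0.69 (0.0771). On means per mouse it was not called (adjusted p 0.404). Of 9 tested TGF-beta target genes, 2 were called over all days against 7.6% of all genes, both higher in Tnfr2-/- cultures, among them Ltbp2, the gene of an extracellular matrix protein (1.62, SE 0.186, adjusted p 4.69e-05). Their part in the Cdkn2b difference was not tested.

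Cdkn2a (ENSMUSG00000044303, 89274471 to 89294653) differed most between the WT mice. From 1 to 7 DPP, WT mouse 1 gave normalised expression of 19.9, 18.8, 11.9, 25.3 and 25.6, while WT mouse 2 gave 32.3, 33.6, 36.1, 63.0 and 62.3. Tnfr2-/- mouse 1 gave 41.4, 43.2, 40.9, 45.2 and 64.8, and Tnfr2-/- mouse 2 gave 37.6, 36.4, 32.7, 35.5 and 56.9. WT mouse 1 was thus below the other 3 mice at every day. Over all days the genotype difference of 0.52 (SE 0.214) was not called (limma adjusted p 0.156). Without WT mouse 1 it was -0.03 (adjusted p 0.937) and without WT mouse 2 it was 1.08 (adjusted p 0.00019), so that its size was set by which WT mouse was used. Late minus early the change was 0.54 (SE 0.238, adjusted p 0.0995), with all 4 mice higher late by 0.33 to 0.86. It passed with the mouse as a correlated replicate block (adjusted p 0.0476) and on means per mouse (0.0362).

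Read by start site, the distal transcript Cdkn2a-202 (89274541 to 89294653) did not change detectably between early and late days (log2 fold change -0.05, SE 0.305, limma adjusted p 0.954). The proximal transcript Cdkn2a-201 (89274471 to 89282192) had a change of 1.25 (SE 0.410, adjusted p 0.0871), also short of the threshold. In WT the proximal transcript averaged 8.20 ± 6.58 early (SD, n = 6) and 19.1 ± 9.89 late (SD, n = 4), and in Tnfr2-/- libraries 14.2 ± 3.68 early (SD, n = 6) and 32.4 ± 18.9 late (SD, n = 4). It was listed at 0 in WT mouse 1 at 3 DPP and reached 59.2, or 91.3% of the gene, in Tnfr2-/- mouse 1 at 7 DPP, where the distal transcript stood at 5.66. In the other Tnfr2-/- mouse the proximal share at 7 DPP was 49.2%, close to the 49.5% and 42.9% of the WT mice. These 2 transcripts share their downstream exons, so that the division between them rests on reads from the first exon, and how far that division carries error was not tested.

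**Figure D4:**
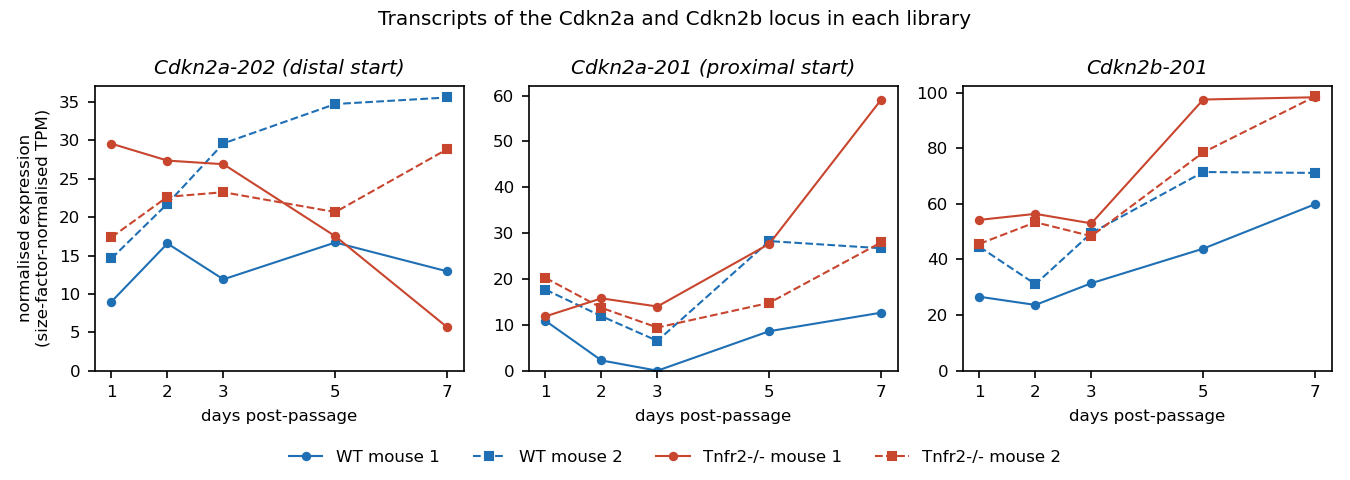
Normalised expression of the distal-start (Cdkn2a-202) and proximal-start (Cdkn2a-201) transcripts of Cdkn2a and of the single Cdkn2b transcript against days post-passage, with 1 line per mouse and a separate axis from 0 for each panel. Tnfr2-/- mouse 1 at 7 DPP combined the highest proximal value, 59.2, with the lowest distal value, 5.66, and Cdkn2b stayed lowest in WT mouse 1.

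Cdkn2c (ENSMUSG00000028551, chromosome 4, 109660876 to 109667189, minus strand), the gene of p18Ink4c, moved opposite to Cdkn2b over the course. Normalised expression over the 5 days was 12.9, 14.8, 10.5, 8.45 and 5.25 in WT mouse 1 and 8.32, 13.4, 17.8, 10.8 and 12.4 in WT mouse 2. Tnfr2-/- mouse 1 gave 13.9, 14.1, 9.45, 4.52 and 5.81, and Tnfr2-/- mouse 2 gave 14.7, 12.2, 8.99, 3.25 and 3.11. At late days both Tnfr2-/- mice were lower than at any early day, as was WT mouse 1. Late minus early it fell by 0.92 on the log2 scale (limma, SE 0.167, adjusted p 0.000977) and was called on means per mouse (0.0354), but not without Tnfr2-/- mouse 2 (-0.79, adjusted p 0.0642). The change was -1.36 in Tnfr2-/- cultures (SE 0.236, adjusted p 0.00163) and -0.47 in WT (SE 0.236, adjusted p 0.184), and the difference between them, -0.90 (SE 0.334), was not called (adjusted p 0.313). On means per mouse the Tnfr2-/- change was not called (adjusted p 0.0683).

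Late Cdkn2c was at 9.23 ± 3.11 in WT and 4.17 ± 1.26 in Tnfr2-/- libraries (SD, n = 4 each), which differed on the log2 scale by -0.96 (limma, SE 0.259, adjusted p 0.0429). Ranges overlapped, because WT mouse 1 at 7 DPP, at 5.25, lay below the highest Tnfr2-/- value of 5.81. The call was lost with the mouse as a correlated replicate block (adjusted p 0.0562), on means per mouse (0.375) and in 14 of 20 fits that left out 1 library, where the adjusted p reached 0.155 without Tnfr2-/- mouse 2 at 7 DPP. It was also lost without either Tnfr2-/- mouse (0.247 and 0.502) or WT mouse 2 (0.13), and held without WT mouse 1 (-1.31, adjusted p 0.023). At such low values the depth behind each library is unknown. The transcripts Cdkn2c-201 and Cdkn2c-202 held 50.1% and 49.9% of the mean over all libraries. Late Cdkn2c-201 was at 5.35 ± 2.77 in WT and 1.63 ± 2.10 in Tnfr2-/- libraries (SD, n = 4 each), a log2 difference of -1.49 that was not called (limma, SE 0.499, adjusted p 0.259). Late Cdkn2c-202 was at 3.89 ± 1.5 and 2.54 ± 0.912, a difference of -0.46 (SE 0.327, adjusted p 0.669). Cdkn2c-202 fell between early and late days (-0.81, SE 0.211, adjusted p 0.0333).

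At the transcript level 37 of the 58 transcripts passed the filter. Over all days 2 of the 33 that are not from Ccnd2 were called between genotypes (0.715% of all transcripts), the Cdkn2b and main Cdkn1a transcripts. Between early and late days 5 of the 37 were called (8.3% of all transcripts): Cdkn2b-201 rose by 0.84 (adjusted p 0.00207), and Ccnd1-201, Ccnd3-205, Cdkn2c-202 and Cdk6-202 fell. Ccnd1-201, the coding transcript with 97.9% of the Ccnd1 signal, fell by 0.83 on the log2 scale (SE 0.103, adjusted p 0.000428).

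Among the other G1 genes more fell than rose. Of 22 other genes of G1 and the restriction point, 12 were called between early and late days against 32.7% of all genes, 10 lower and 2 higher late, with a median log2 fold change of -0.198. The E cyclins, which activate CDK2 after the D cyclins have acted, were among those that fell, with Ccne2 at -1.24 (limma, SE 0.156, adjusted p 6.6e-05) and Ccne1 at -0.90 (SE 0.115, 7.19e-05). Cks1b, a CDK subunit, fell as well (-0.85, SE 0.104, 5.31e-05), and Cdkn1c, the gene of the third CIP/KIP inhibitor p57, rose (0.81, SE 0.242, 0.0196). Between genotypes 1 of the 22 was called at late days, against 6.45% of all genes (Cks1b, -0.66, SE 0.162, adjusted p 0.029), and 1 over all days, against 7.6% of all genes (Ccne2, -0.62, SE 0.171, 0.0346), both lower in Tnfr2-/- cultures.

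For comparison, 19 of 20 S and M phase genes fell between early and late days against 32.7% of all genes called, with a median log2 fold change of -1.01, against -0.108 over the 10 genes. At late days 4 of them were lower in Tnfr2-/- cultures, where 6.45% of all genes were called, with Plk1, a mitotic kinase, at -0.94 (SE 0.184, adjusted p 0.0103), and the replication helicase genes Mcm7 at -0.91 (SE 0.193, 0.0163), Mcm3 at -0.80 (SE 0.185, 0.023) and Mcm4 at -0.45 (SE 0.121, 0.0443). The summed level of the 20 genes lay between 890.5 and 1212 in late WT and between 646.9 and 970.5 in late Tnfr2-/- libraries. The sum was thus lower in the same late libraries as Ccnd2 and Cdkn2c, with overlapping ranges, and its part in their values was not tested. Of 16 p53 target genes other than Cdkn1a, 2 were called over all days against 7.6% of all genes, both higher in the knockout: Gdf15, a stress cytokine (1.25, SE 0.119, adjusted p 5.61e-06), and Pmaip1, a pro-apoptotic gene (0.46, SE 0.135, 0.0428). The median log2 fold change of the 16 was -0.0538.

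Between genotypes at late days 6.45% of all genes were called, and the cell type markers Dcn, Car1 and Cd68 were among them. The summed level of 10 fibroblast markers lay between 1366 and 4557 in late WT and between 3639 and 8528 in late Tnfr2-/- libraries, their median log2 fold change was 0.84, and Dcn was the 1 of 10 called there (log2 fold change 2.74, SE 0.222, limma adjusted p 2.16e-05). The sum of 8 epithelial markers overlapped, between 14880 and 18310 in late WT and between 13360 and 18870 in late Tnfr2-/- libraries. The goblet cell sum was between 183.9 and 1802 in late WT and between 99.1 and 243.5 in late Tnfr2-/- libraries, with a median log2 fold change of -2.03 over the 5 markers tested and 0 called by limma (3 at an unadjusted p under 0.05). The 6 absorptive colonocyte markers had a median of -1.27. Of these, Car1 alone was called, and was lower in late Tnfr2-/- libraries (-4.74, SE 1.19, adjusted p 0.0315). Of the 6 immune markers 2 were high enough to test, Cd68 and Lyz2. Cd68 was higher there (1.35, SE 0.243, adjusted p 0.0064), and Lyz2 was not called. The defining immune gene Ptprc was at most 0.1325 in late Tnfr2-/- libraries. Over all days, where 7.6% of all genes were called, 2 of 10 fibroblast and 2 of 8 epithelial markers were called, all higher in Tnfr2-/- cultures. Of the immune markers 1 of the 2 tested was called higher. Of the goblet markers 1 of the 5 tested was called lower (median -1.94), as was 1 of 6 absorptive markers (median -0.958). The part of these marker values in the Ccnd2, Cdkn1a, Cdkn2b and Cdkn2c differences was not tested.

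Over the 20 libraries, which share days and mice, Ccnd1 and Cdk6 followed each other most closely among the 10 genes (Pearson r 0.81 of log2 values), followed by Cdkn2a with Cdkn2b (0.797). The most opposed pairs were Cdkn2b with Cdkn2c (-0.657), Cdkn1b with Cdkn2c (-0.635) and Ccnd1 with Cdkn1b (-0.611). Among the other 13538 tested genes, those most like Ccnd1 in pattern were Map6 (r 0.942) and Pcsk6 (0.926), and those most like Ccnd2 were Ucp2 (0.895), Il17re (0.878) and Cpped1 (0.874). Ccnd3 was nearest to Parva (0.842), Daglb (0.806) and Rbm34 (0.787), Cdk4 to Lsm3 and Emc7 (both 0.818) and Meaf6 (0.812), and Cdk6 to Ccng1 (0.86), Vav2 (0.839) and Scel (0.825). For the inhibitors, the nearest were Ebf4 (0.858), Slc2a1 (0.813) and Arsa (0.806) for Cdkn1a, and Ephb4 (0.893), Arl14 (0.884) and Sord (0.879) for Cdkn1b. Cdkn2a was nearest to Plcg2 (0.911), Ctsd (0.91) and Fn1 (0.899), Cdkn2b to Gadd45a (0.945), Rhou (0.941) and Rab5b (0.94), and Cdkn2c to Nudc (0.901), Tubgcp2 (0.898) and Heatr3 (0.895). These are descriptions over 20 libraries of 4 mice, with no test.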

How the data were processed

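mRNA of 20 colonoid libraries was sequenced as single-end reads from stranded libraries. CASAVA, kallisto, sleuth and the build mm10 are named in the submitters' processing notes. The authors deposited, for each transcript, a signal (TPM that sleuth had scaled by size factors), which keeps no read depth. The authors' own test results in the table (p-values, q-values, test statistics and variance terms) were not used. Of 113974 lines, 781 identical repeats were dropped, and transcripts were summed per symbol.

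Models were fitted to log2(value + 1) by limma 3.58.1 (R 4.3.3, trended prior variance) for 13539 genes with a mean of at least 1, and p-values were adjusted over all of them by the Benjamini-Hochberg method. The pseudocount of 1 shrinks fold changes of low genes. The genotype effect over all days used day as a factor, and other comparisons were contrasts among 10 group means. The plan had assumed TPM, and its test for normalised values was kept. The script was tested on simulated data. Members and lists were chosen with earlier results of these data known. All 10 members and their transcripts with a mean of at least 1 are named, other lists by up to 4 called genes with the largest changes, and likeness by the 3 highest correlations, except for genes that are not reported here.

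The replicate number names the mouse within a genotype, as the design text gives 2 mice each. It does not pair genotypes: deviations of same-numbered libraries correlated at a median r of 0.0408 between genotypes, and at 0.203 within WT and 0.0386 within Tnfr2-/- mice. Fits with the mouse as a correlated replicate block gave a within-mouse correlation of 0.0588 (day plus genotype) and 0.0929 (group means).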

Additional observations from a re-analysis of the deposited data

Results flagged for a closer look

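For Ccnd2 the genotype effect differed between the late and the early days by a log2 of -1.08 (SE 0.183), the largest such change among the 10 genes. This gene was known to show it when the list was drawn up, so the value is a description here and not independent evidence. At 5 and 7 DPP the WT values of both mice exceeded those of both Tnfr2-/- mice, and at 1 and 3 DPP they were below them for the whole gene. At 3 DPP the main transcript Ccnd2-201 ran the other way, at 167.0 and 170.7 in WT against 140.6 and 140.9 in Tnfr2-/- mice. The size was between -1.27 and -0.90 when all days of 1 mouse were left out.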

How the results depend on the processing

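Counts between genotypes and within a genotype leave out Ccnd2, which has no test there, and so cover 9 genes. Over all days (2 called) the count was 1 with libraries rescaled to equal totals, without the mean-variance trend or with the mouse as a correlated replicate block, 0 on means per mouse, and 0 to 2 without 1 library or mouse. At late days (1) it was 0 without the filter, with that block or on means per mouse, and 0 to 2 in leave-outs, with 2 without either WT mouse. Early it was 0 in limma (2 at an unadjusted p under 0.05), with 0 to 3 in leave-outs. The change from early to late was called for 0 of the 9 genes in limma (2 at an unadjusted p under 0.05) and in each alternative run. By single day it was 0 to 4 in leave-outs, against 0 in limma with all libraries (0 to 2 a day at an unadjusted p under 0.05). Over all 10 genes the count for neighbouring days (1) was 0 without the trend, 2 with either replicate block, correlated or by replicate number, and 0 to 4 in leave-outs. Late minus early gave 0 on means per mouse in WT and in Tnfr2-/- cultures (3 each), with 0 to 4 and 0 to 5 in leave-outs, and over both genotypes and 10 genes (5) it gave 2 to 7. The cause was not tested. Over all genes, means per mouse gave 7 calls between genotypes over all days, and 0 at late days or within either genotype. The highest counts early (3), by single day (4) and for neighbouring days (4) came without WT mouse 2. With equal totals the share of higher calls over all genes went from 59.4% to 37.0% over all days, from 59.0% to 43.3% late, from 57.7% to 46.3% in WT and from 51.2% to 39.4% in Tnfr2-/- cultures. Where 1 mouse was left out, the lone library of a group was assumed to vary like the other groups. Of 462 alternative values for genes with a call, 375 kept it, 87 lost it and 0 changed sign. The called Ccnd1 step from 3 to 5 DPP was not among these. Fixed blocks by replicate number changed no call of Cdkn1a, Cdkn2b or Cdkn2c between genotypes. Rescaling moved the median of all genes by -0.0764 to 0.0201. With values of a few units, as for Cdkn2c, the unknown depth limits precision.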
